A study of Homo sapiens with 6 samples.

Results

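The genes of cholesterol synthesis, uptake and trafficking are 28 protein-coding genes fixed by name: 20 enzymes that lead from acetyl-CoA units to cholesterol or to isoprenoids, and 8 genes for proteins that move, store or sense the sterol. They were found by symbol in a table of 63241 genes and kept where the mean over all libraries was at least 1 TPM (a gene's share of the transcripts in a library after division by length). All 28 met that level, among 12999 genes of the table that did. The RNA came from MDA-MB-231, an established human breast cancer line of the triple-negative class, in 6 libraries: 3 of cells treated with 40 µM ArA and kept in culture for 24 h, and 3 of non-treated cells, labelled NC and called control here. The title of the study gives arachidonic acid, a polyunsaturated fatty acid, as the name behind ArA. No vehicle is named for the control cells, all libraries are of 1 line, and nothing says whether replicates were separate cultures, so each p-value sets a difference against the spread of these 6 libraries alone, and that spread could be technical.

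Cells obtain cholesterol by making it in the endoplasmic reticulum and by taking up lipoproteins, whose cholesterol leaves the lysosome through the NPC proteins. Synthesis is governed by SREBP transcription factors, which INSIG proteins and SCAP hold in the endoplasmic reticulum when sterol is plentiful and which otherwise switch on nearly every enzyme of the pathway. Polyunsaturated fatty acids are known to restrain SREBP, chiefly the form that drives fatty acid synthesis, and the comparison of ArA with control cells shows whether transcripts of the sterol branch differed after exposure to such a fatty acid.

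Sequencing depth is unknown, since TPM values carry no read counts, and no counting error can be given. Mitochondrially encoded transcripts took 32.9, 32 and 31.6% of the TPM total in control replicates 1, 2 and 3. In ArA replicates 1, 2 and 3 they took 32.1, 28 and 26.9%. The 4 markers of the mesenchymal line (VIM, CD44, SPARC and ZEB1) summed to 1760 to 1890 TPM without ArA and 1870 to 1960 TPM with ArA. Of 8 luminal markers, ESR1, PGR and CDH1 stayed under a mean of 1 TPM, while keratins KRT8 and KRT18 were abundant, so this list summed to 644 to 814 TPM without ArA and 694 to 790 TPM with ArA. The 4 blood markers summed to 0.43 TPM at most, the endothelial pair to 0.42 TPM at most, and the 4 fibroblast or muscle markers to between 6.42 and 8.21 TPM, most of it COL1A1. HBB, PGR and MYH7 were listed at 0 in every library. Control replicate 2 and ArA replicate 1 stood apart from the other libraries of their groups in genes of low and high GC content. Over the 12637 tested genes with a GC value, the deviation of control replicate 2 from the mean of control replicates 1 and 3 had a Pearson correlation with GC content of 0.498, and that of ArA replicate 1 from ArA replicates 2 and 3 a correlation of 0.409. These are descriptions across genes of the same libraries, which are not independent points.

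No gene of the cholesterol set passed the test for a difference between ArA and control cells. In limma, fitted on log2(TPM + 1) over all 12999 genes and adjusted over all of them by Benjamini-Hochberg, 0 of the 28 genes reached an adjusted p of 0.05, where 0.0231% of all genes tested did (2 higher and 1 lower). The lowest adjusted p among the 28 was 0.999. Their lowest unadjusted p was 0.153, so that 0 of 28 lay under 0.05, against 2.78% of all genes. Groups did not overlap, with all 3 ArA values above all 3 control values, for ERLIN1 and NPC1, which is 7.14% of the set beside 6.84% of all genes. For 0 of 28 genes were all ArA values below all control values, beside 1.21% of all genes. In either direction together, groups did not overlap for 8.05% of all genes, so the count of 2 is near the background. Differences are given here as ArA minus control on the log2(TPM + 1) scale less the median difference of all tested genes, which was 0.06, and the scale slightly understates the change of low genes. On that scale the 28 genes ran from -0.16 for STARD4 to 0.19 for SOAT1, with a median of -0.02, and 12 lay above and 16 below the median of all genes. The median size of the difference, sign aside, was 0.07 for the 28 genes and 0.08 for all tested genes. For 27 of the 28 the difference on that scale was smaller than the gene's own SD between replicates, the exception being ACAT2. The p-values, unlike the intervals given below, are for the difference before the median of all genes was taken off. Before that step ACAT2 lay under its SD, while STARD3, NPC1, SOAT1, OSBP, ERLIN1 and ERLIN2 lay above theirs and the other genes under theirs.

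**Figure D1:**
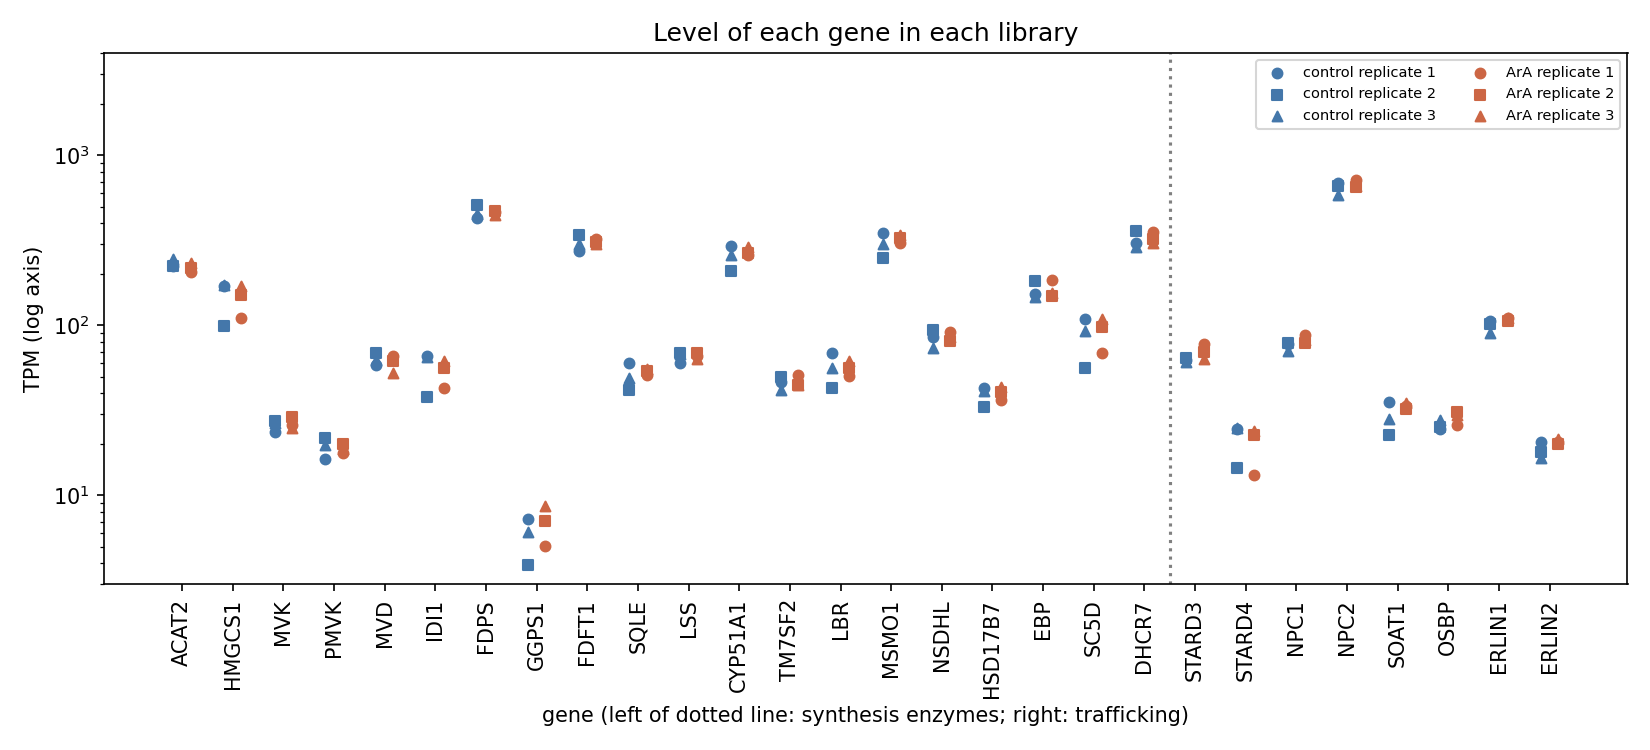
Level of each of the 28 genes in each library (vertical axis, TPM on a log scale; points are single libraries, blue for control and orange for ArA, with a symbol per replicate number). The groups overlap for every gene except ERLIN1 and NPC1, and control replicate 2 and ArA replicate 1 lie lowest of their groups for HMGCS1, IDI1, GGPS1, SC5D and STARD4.

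Summed over the 20 synthesis enzymes, the transcripts came to 2842, 2715 and 2774 TPM in control replicates 1, 2 and 3 and to 2776, 2830 and 2863 TPM in ArA replicates 1, 2 and 3. The ranges overlap, with means of 2777 ± 63.6 TPM without ArA and 2823 ± 43.9 TPM with ArA (SD, n = 3 each). The 8 trafficking genes summed to 1037, 982.5 and 904.2 TPM without ArA and to 1090, 1014 and 1029 TPM with ArA, again with overlap. Neither sum is taken less the median difference of all genes, which was 0.06 on the log2 scale. The mitochondrial share of the total was lower in ArA replicates 2 and 3 than in the other libraries, and these sums were not corrected for it. As TPM are shares of bulk RNA, less RNA per cell and fewer cells with the transcript cannot be told apart.

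The promoters of the set were searched for short sequences that the choice of genes did not use. RefSeq promoter windows on GRCh38.p14, from 250 bases before to 50 bases after the start, were at hand for 23 of the 28 genes (31 windows, as some genes have several starts). The NF-Y box, searched as CCAAT on either strand, was present in 20 of these 31 windows (64.5%) and in 34.6% of all 35116 windows of the same length. It was also in 14 of 31 windows of the other cholesterol genes described further on (45.2%) and in 8 of 16 windows of fatty acid synthesis genes, and these shares were not tested against each other. Counted by gene, the box was in 18 of 23 genes of the set and in 10846 of 27305 genes with a window. Those 27305 include genes under 1 TPM here, and the share among tested genes was not worked out. NF-Y is a general promoter factor known to work beside SREBP. The sterol regulatory element to which SREBP binds, searched on either strand as its consensus with 1 free base, was in 0 of the 31 windows and in 0.154% of all windows. This match is so rare among all windows that 0 of 31 cannot show whether the set lacks the element. Looser forms of the element were not searched. The E-box CACGTG, another SREBP target sequence, was in 3 of 31 windows (9.68%) against 7.26% of all. A match of letters is a description of the window, not a shown binding site. The 200 bases before a RefSeq start are printed for MVK, MSMO1 and OSBP, an early, a late and a trafficking gene with 4 boxes each. They are also printed for HMGCS1, whose level varied widely between replicates, and for SREBF2, which codes for the sterol-branch SREBP. SREBF2 was the only gene whose window held the sterol element among the 22 genes of the wider cholesterol pathway that had a window. Where a gene has several windows, the one with the most boxes was printed. In GENCODE v29, MVK begins at 109573255 and OSBP, on the reverse strand, at 59616144. Their printed stretches lie inside those gene bounds, so they do not precede the outermost start. The stretches of HMGCS1, MSMO1 and SREBF2 lie partly inside the gene bounds. HMGCS1, on the reverse strand, begins at 43313512, MSMO1 at 165327623 and SREBF2 at 41833079. Capitals mark CCAAT, its reverse complement ATTGG, and in SREBF2 also the sterol element, with no overlap between marked stretches. HMGCS1 is at chr5:43313413-43313612 (reverse strand), MVK at chr12:109573594-109573793 (forward), MSMO1 at chr4:165327469-165327668 (forward), OSBP at chr11:59615775-59615974 (reverse) and SREBF2 at chr22:41832905-41833104 (forward).
HMGCS1: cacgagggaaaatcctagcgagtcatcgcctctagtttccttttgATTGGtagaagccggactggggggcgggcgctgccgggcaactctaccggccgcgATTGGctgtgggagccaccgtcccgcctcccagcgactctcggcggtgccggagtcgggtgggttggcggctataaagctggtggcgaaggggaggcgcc
MVK: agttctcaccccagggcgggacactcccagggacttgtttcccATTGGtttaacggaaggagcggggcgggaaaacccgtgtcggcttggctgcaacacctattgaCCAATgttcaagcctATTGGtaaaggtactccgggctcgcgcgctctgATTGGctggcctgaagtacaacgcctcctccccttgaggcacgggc
MSMO1: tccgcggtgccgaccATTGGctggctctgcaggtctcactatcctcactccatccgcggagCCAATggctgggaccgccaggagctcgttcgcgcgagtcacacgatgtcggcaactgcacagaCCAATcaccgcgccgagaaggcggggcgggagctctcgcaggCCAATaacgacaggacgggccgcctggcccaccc
OSBP: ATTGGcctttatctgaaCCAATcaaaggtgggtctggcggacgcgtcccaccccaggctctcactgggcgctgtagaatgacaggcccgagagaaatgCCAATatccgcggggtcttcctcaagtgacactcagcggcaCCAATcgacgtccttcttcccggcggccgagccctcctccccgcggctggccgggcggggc
SREBF2: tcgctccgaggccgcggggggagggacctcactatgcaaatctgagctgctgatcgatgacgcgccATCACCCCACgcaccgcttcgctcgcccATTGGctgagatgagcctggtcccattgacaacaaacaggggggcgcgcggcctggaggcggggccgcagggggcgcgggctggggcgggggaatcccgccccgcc
These stretches held 2 boxes in HMGCS1, 4 in MVK, 4 in MSMO1, 4 in OSBP and 1 in SREBF2.

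The first steps turn acetyl-CoA into mevalonate and then into the activated isoprene unit. ACAT2, the cytosolic thiolase that joins acetyl-CoA units, had 222.2, 222.99 and 247.0 TPM in control replicates 1, 2 and 3 and 205.4, 217.64 and 231.42 TPM in ArA replicates 1, 2 and 3. ArA replicate 3 lay above control replicates 1 and 2, so the groups overlapped, and the difference was -0.14 (95% interval -0.33 to 0.06). HMGCS1, which makes HMG-CoA, had 170.15, 99.13 and 174.01 TPM without ArA and 109.86, 151.16 and 169.55 TPM with ArA. Its low values were control replicate 2 and ArA replicate 1, and the interval of the difference was correspondingly wide (-0.08, -0.67 to 0.51). Mevalonate kinase MVK had 26.0 ± 2.01 TPM without ArA and 26.6 ± 1.99 TPM with ArA (SD, n = 3 each). PMVK, the next kinase, had 16.33, 21.65 and 19.74 TPM without ArA and 17.72, 19.96 and 18.89 TPM with ArA, all ArA values falling inside the control range (-0.08, interval -0.38 to 0.22). The decarboxylase MVD had 58.5, 68.63 and 62.88 TPM without ArA and 66.29, 61.62 and 52.85 TPM with ArA. Only ArA replicate 3 of MVD lay below the lowest control value, and the difference was -0.13 (interval -0.40 to 0.14). All 5 of these genes had differences below the median of all genes. The difference of ACAT2 was larger than its SD between replicates (0.09), and those of the other 4 were smaller than theirs.

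Isopentenyl units are then isomerised and joined into the farnesyl and geranylgeranyl chains used for sterols and for anchoring proteins to membranes. IDI1, the isomerase, had 66.21, 37.8 and 64.93 TPM without ArA and 43.04, 56.06 and 61.48 TPM with ArA, a difference of -0.10 (interval -0.66 to 0.46). As for HMGCS1, control replicate 2 and ArA replicate 1 were the low libraries. Farnesyl diphosphate synthase FDPS, the second most abundant of the 28 transcripts, had 427.39, 510.44 and 454.13 TPM without ArA and 462.23, 469.53 and 445.9 TPM with ArA. All ArA values lay inside the control range, and the difference was -0.07 (interval -0.27 to 0.14). GGPS1, which extends farnesyl to the geranylgeranyl chain, was the least abundant, at 7.28, 3.91 and 6.09 TPM without ArA and 5.03, 7.09 and 8.68 TPM with ArA. Its difference of 0.18 was the largest positive value of the synthesis enzymes, with an interval of -0.41 to 0.77. Means over all libraries spanned 104-fold within the set, from GGPS1 to NPC2, and 10 of the 28 genes had a mean of at least 100 TPM.

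Squalene is formed, oxidised and cyclised to lanosterol by the next enzymes. FDFT1, squalene synthase, had 305 ± 31.9 TPM without ArA and 310 ± 10.4 TPM with ArA. SQLE, the epoxidase and a rate-controlling step, had 59.88, 41.73 and 49.33 TPM without ArA and 51.22, 53.94 and 55.52 TPM with ArA, with all ArA values inside the control range (0.05, interval -0.27 to 0.37). Lanosterol synthase LSS had 65.7 ± 4.78 and 66.1 ± 2.80 TPM (SD, n = 3 each). The interval of LSS, -0.26 to 0.17, was among the narrower of the set.

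From lanosterol onward, methyl groups are removed and double bonds are moved and reduced. The demethylase CYP51A1 had 293.65, 208.52 and 258.95 TPM without ArA and 258.35, 265.51 and 288.37 TPM with ArA, and MSMO1, the methyl sterol oxidase, had 350.4, 249.77 and 300.25 TPM without ArA and 305.04, 326.04 and 339.13 TPM with ArA. In each the 3 ArA values lay inside the control range, whose low end was control replicate 2. NSDHL and HSD17B7, which act with MSMO1, had 84.2 ± 9.95 and 39.0 ± 5.15 TPM without ArA and 85.8 ± 5.14 and 40.2 ± 3.40 TPM with ArA. The sterol reductases TM7SF2 and LBR, the latter also a receptor for the nuclear lamina, had 45.9 ± 3.98 and 56.0 ± 12.8 TPM without ArA and 46.7 ± 3.70 and 56.3 ± 5.67 TPM with ArA. EBP, a sterol isomerase, had 161 ± 18.7 and 163 ± 19.9 TPM (SD, n = 3 each). SC5D, which puts in the double bond of the last intermediate but one, had 108.46, 56.39 and 92.68 TPM without ArA and 69.23, 98.39 and 109.02 TPM with ArA, the same low libraries as HMGCS1 and IDI1. DHCR7, a final reductase of the pathway, had 305.98, 357.79 and 287.62 TPM without ArA and 354.02, 324.39 and 303.91 TPM with ArA. Here control replicate 2 and ArA replicate 1 were instead the highest of their groups, and the difference was -0.01 (interval -0.26 to 0.24). Over all 20 synthesis enzymes, 5 lay above and 15 below the median of all genes, with a median of -0.03 and 0 whose groups did not overlap. The median was 0.01 without a filter on low values, and with 1 library left out it ran from -0.08 (without ArA replicate 1) to 0.02 (without ArA replicate 3).

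The trafficking genes lay mostly above the median of all genes, 7 of 8, with a median difference of 0.09, and 0 of 8 passed the test. Without control replicate 3 the median was -0.0006. The difference between trafficking and synthesis genes was not tested. NPC1, the lysosomal membrane protein that passes cholesterol outward, had 77.64, 79.04 and 70.71 TPM without ArA and 87.45, 79.34 and 81.73 TPM with ArA. Its groups did not overlap, but by the margin between 79.04 and 79.34 TPM, and the difference of 0.07 had an interval of -0.13 to 0.27. NPC2, the soluble partner that hands sterol to NPC1, was the most abundant gene of the set, with 684.44, 657.41 and 585.12 TPM without ArA and 720.51, 652.44 and 663.03 TPM with ArA. Its groups overlapped, and its difference was 0.02, which turned to -0.01 with quantile normalization. ERLIN1 and ERLIN2 form a complex of the endoplasmic reticulum that takes part in the degradation of membrane proteins there. ERLIN1 had 105.96, 101.68 and 90.62 TPM without ArA and 110.57, 106.55 and 110.96 TPM with ArA, groups set apart by 105.96 against 106.55 TPM (0.08, interval -0.12 to 0.29). ERLIN2 had 20.75, 17.92 and 16.62 TPM without ArA and 20.58, 20.17 and 21.5 TPM with ArA, where control replicate 1 lay among the ArA values (0.11, interval -0.15 to 0.38). After each of the 3 other scalings and after removal of the trend with GC content, ERLIN1 and NPC1 were no longer set apart by group, and 0 genes of the set were higher without overlap. The share of all genes higher without overlap was then also smaller, at 2.93, 3.01 and 3.36% under the scalings and 4.9% after the GC correction.

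SOAT1, which esterifies cholesterol for storage in lipid droplets, had 35.49, 22.6 and 28.01 TPM without ArA and 33.67, 32.33 and 35.11 TPM with ArA. Control replicate 1 was the highest of the 6 values and the other control values were the lowest, so that the difference of 0.19, the largest of the set, had an interval of -0.19 to 0.57. STARD3, which tethers late endosomes to the endoplasmic reticulum, had 63.02, 64.21 and 60.64 TPM without ArA and 77.74, 69.51 and 63.31 TPM with ArA. ArA replicate 3 of STARD3 lay among the control values (0.10, interval -0.13 to 0.33). STARD4, a soluble sterol carrier, had 24.73, 14.49 and 24.79 TPM without ArA and 13.15, 22.6 and 23.92 TPM with ArA. It showed the widest interval of the set, -0.82 to 0.51 around -0.16, with control replicate 2 and ArA replicate 1 far below the other 4 libraries. OSBP, which exchanges sterol for a phosphoinositide at the Golgi, had 24.67, 25.19 and 27.74 TPM without ArA and 26.05, 30.8 and 29.8 TPM with ArA, with 1 ArA value inside the control range (0.10, interval -0.15 to 0.34).

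**Figure D2:**
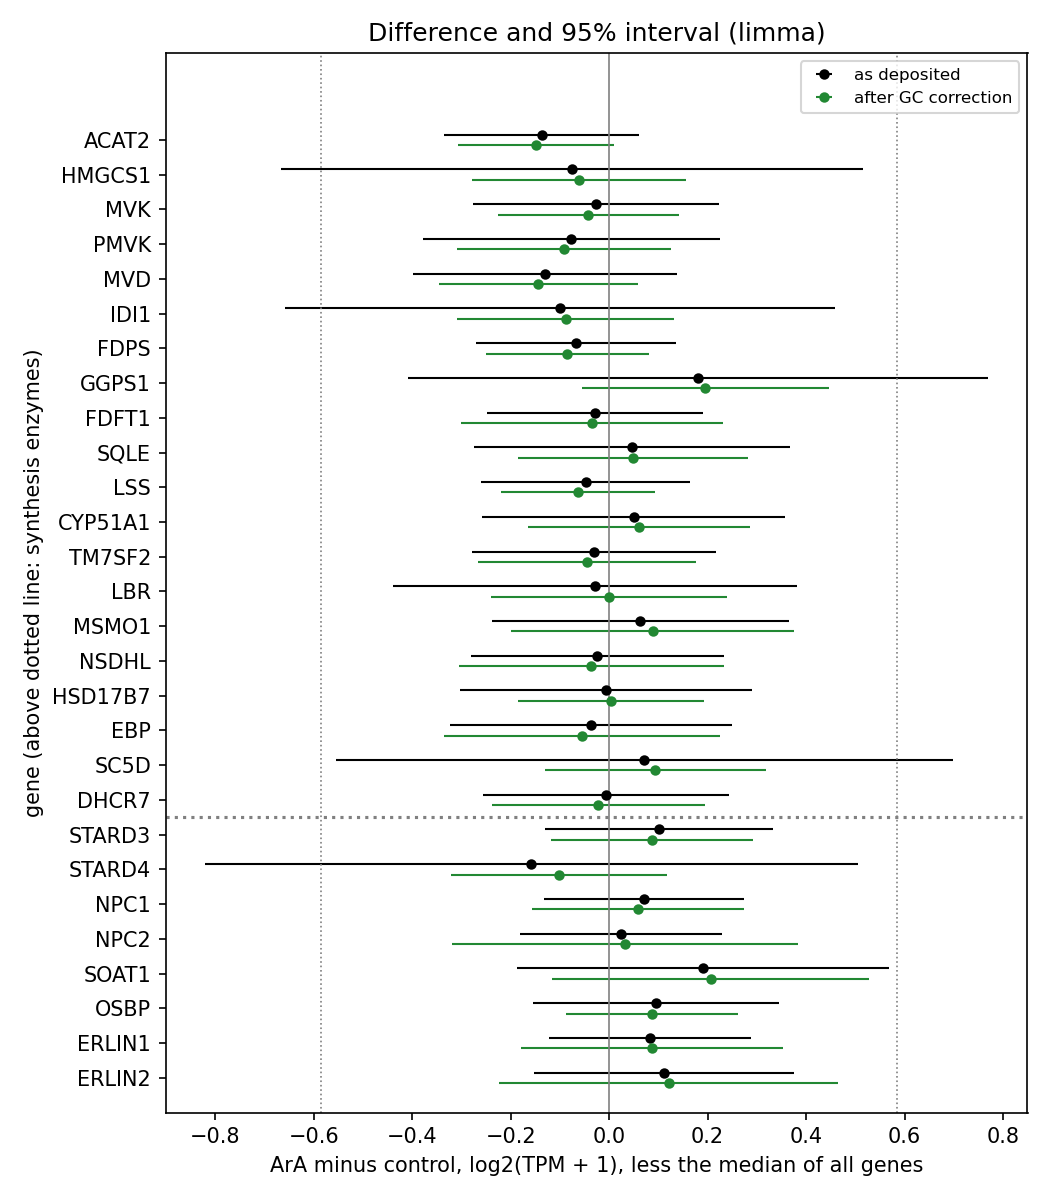
Difference between ArA and control for each gene, on log2(TPM + 1) less the median of all genes (horizontal axis), with 95% intervals from limma (black, values as deposited; green, after GC correction; dotted vertical lines at a 1.5-fold change either way). Every interval includes 0, and the widest black intervals, of STARD4, SC5D, HMGCS1, GGPS1 and IDI1, are narrower in green.

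The spread between replicates in the set followed the GC content of the transcripts. Of the 12 genes whose longest transcript has under 45% GC (34.2 to 44.3%), control replicate 2 was the lowest control library for 10 and the highest for 0. Of the 16 genes with more GC (45.8 to 64.2%), control replicate 2 was the lowest for 1 and the highest for 12. ArA replicate 1 was the lowest ArA library for 9 of the 12 and for 4 of the 16, and the highest for 1 and 8. The median deviation of control replicate 2 from the other control libraries was -0.50 on the log2 scale in the GC-poor genes and 0.14 in the others. For ArA replicate 1 these medians were -0.20 and 0.05. Across the 28 genes the deviation of control replicate 2 had a Pearson correlation of 0.815 with GC content, that of ArA replicate 1 one of 0.692, and the deviations of these libraries one of 0.859 with each other. The pattern was not particular to the set. In the same order, the correlations were 0.798, 0.727 and 0.726 for the other cholesterol pathway genes and 0.707, 0.520 and 0.737 for the fatty acid genes. Over all tested genes with a GC value they were 0.498, 0.409 and 0.378. The difference between ArA and control had a correlation of -0.268 with GC content. The split at 45% was chosen after the values were seen, the genes share the same 6 libraries, and these correlations are descriptions.

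**Figure D3:**
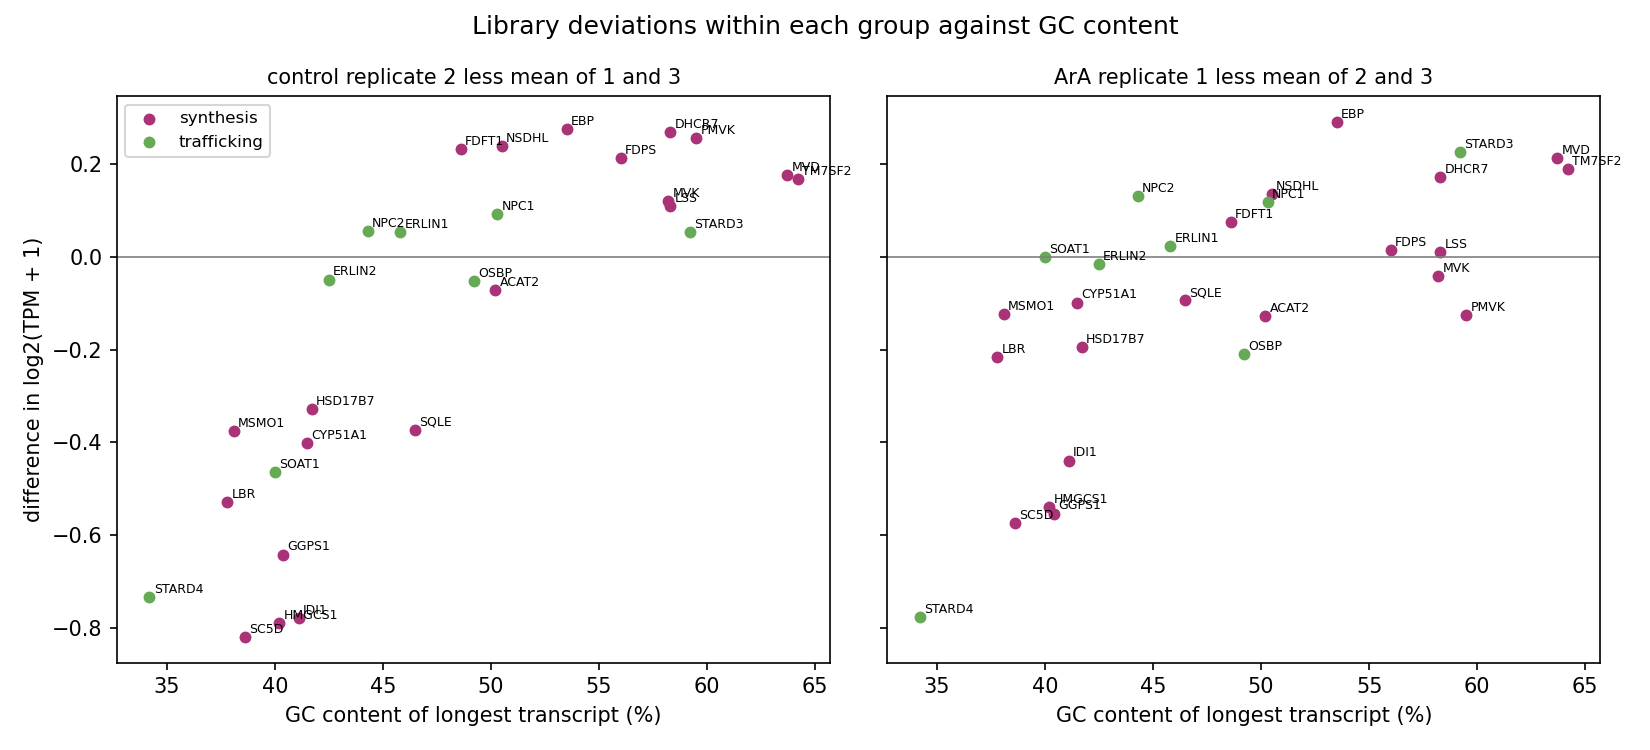
Deviation of control replicate 2 (left) and of ArA replicate 1 (right) from the mean of the other libraries of the group, in log2(TPM + 1) (vertical axis), against the GC content of each gene's longest transcript in percent (horizontal axis); each point is a gene. GC-poor genes such as STARD4, SC5D and HMGCS1 lie well below 0 in each panel, and GC-rich genes such as EBP and DHCR7 above it.

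Removal of each library's trend with GC content, fitted over all genes without regard to group, lowered the SD between replicates for 19 of the 28 genes. The median SD of the set went from 0.14 to 0.12, and that of all genes with a GC value from 0.18 to 0.14. The SD of STARD4 went from 0.44 to 0.11, that of SC5D from 0.42 to 0.13, and that of HMGCS1 from 0.39 to 0.12. In NPC2 it rose from 0.10 to 0.23 and in ERLIN2 from 0.11 to 0.22. The differences themselves moved little: HMGCS1 was at -0.06 (interval -0.28 to 0.16), IDI1 at -0.09 (-0.31 to 0.13), STARD4 at -0.10 (-0.32 to 0.12) and SC5D at 0.09 (-0.13 to 0.32). ACAT2 alone then had ArA values all below the control values, at -0.15 (interval -0.31 to 0.01), beside 4.01% of all genes. None of the 28 passed the test after the correction (limma adjusted p from 0.98 to 1 over all alternatives that kept every library).

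**Figure D4:**
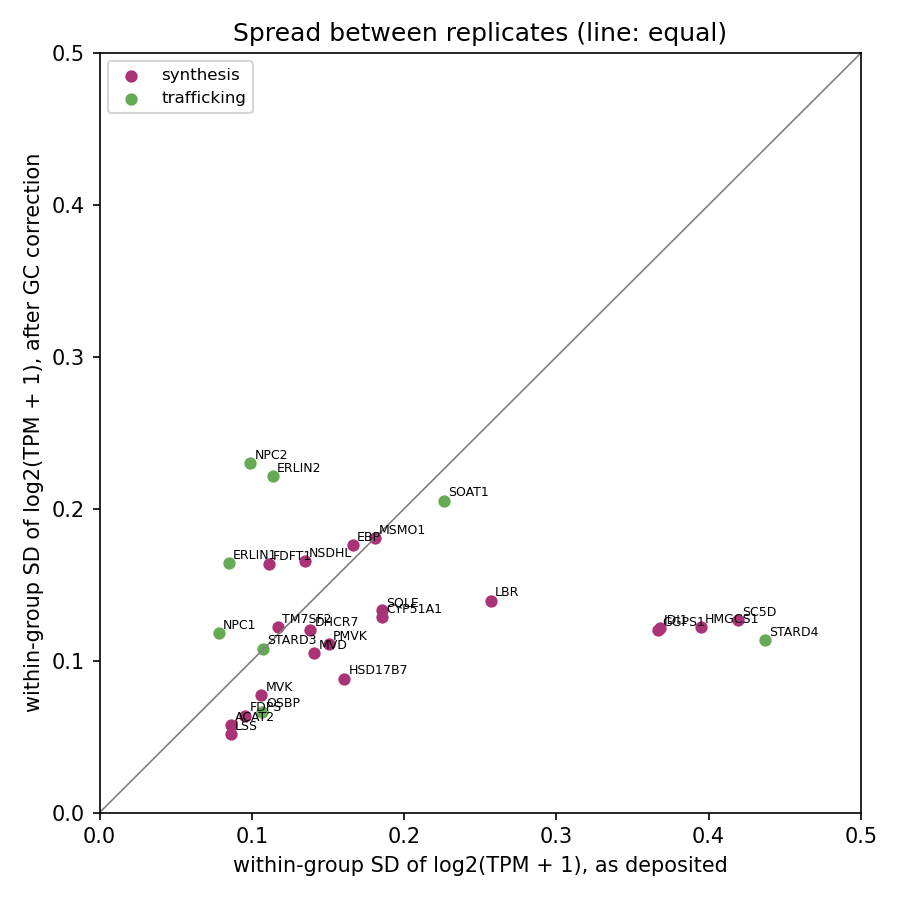
Within-group SD of log2(TPM + 1) for each gene, pooled over both groups, with values as deposited (horizontal axis) and after GC correction (vertical axis); the line marks equal SD. STARD4, SC5D, HMGCS1, IDI1 and GGPS1 lie far below the line, and NPC2, ERLIN2 and ERLIN1 above it.

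The intervals give the range of change compatible with the values of each gene. They are not adjusted over all genes, so they do not say how large a change the adjusted test could have missed. With values as deposited, the 95% interval lay inside a 1.5-fold change in either direction for 23 of the 28 genes, and inside a 2-fold change for all 28. Of all genes tested, 67.7% lay inside 1.5-fold and 94.3% inside 2-fold. After GC correction all 28 lay inside 1.5-fold, beside 85.4% of all genes. A change of 1.3-fold in either direction lay outside the interval for 20 of 28 genes as deposited and for 24 after correction. The shares of all genes were 31.6% and 56.2%. For the remaining genes of the set, a change of 1.3-fold in at least 1 direction lay within the interval, with 3 libraries a group. The width of the interval differed by gene, and changes under 1.3-fold were not counted. The smallest change that the adjusted test would have called was not worked out.

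Other genes of the cholesterol pathway, a list of 32 of which 28 had a mean of at least 1 TPM, gave 0 calls, with 17 above the median of all genes and a median difference of 0.05, which was -0.01 without control replicate 3 or without ArA replicate 1. INSIG1, the sterol-sensing retention protein and an SREBP target, had 132.72, 101.94 and 114.17 TPM without ArA and 110.61, 100.49 and 108.76 TPM with ArA, a difference of -0.17 (interval -0.44 to 0.09). SREBF2 had 103.64, 123.46 and 89.59 TPM without ArA and 125.44, 114.55 and 101.68 TPM with ArA, with overlap (0.06, interval -0.26 to 0.38). The largest difference of the list was that of INSIG2, a relative of INSIG1, which had 16.98, 14.42 and 13.34 TPM without ArA and 15.36, 20.65 and 22.55 TPM with ArA (0.30, interval -0.09 to 0.69).

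The groups did not overlap, with ArA higher, for MBTPS1 and GRAMD1B, 2 of 28 beside 6.84% of all genes. MBTPS1, a protease that releases SREBP at the Golgi, had 69.22, 64.9 and 58.91 TPM without ArA and 81.18, 73.61 and 70.96 TPM with ArA (0.17, interval -0.06 to 0.40). GRAMD1B, which carries cholesterol from the plasma membrane to the endoplasmic reticulum, had 7.47, 8.92 and 8.81 TPM without ArA and 9.57, 11.71 and 9.84 TPM with ArA (0.22, interval -0.09 to 0.53). After GC correction the groups still did not overlap for GRAMD1B, while those of MBTPS1 did. All ArA values then lay above all control values for 4.9% of all genes. The sterol exporters ABCA1 and ABCG1, targets of the LXR receptors, stayed under a mean of 1 TPM, with ABCA1 between 0.25 and 0.46 TPM in all 6 libraries. SOAT2, the second esterifying enzyme, was listed at 0 in every library. Of 10 genes of fatty acid synthesis that SREBP also drives, 0 passed the test, 3 lay above the median of all genes, and their median difference was -0.01. That median ran from -0.10 without ArA replicate 1 to 0.06 without control replicate 2. Among them SCD, a desaturase, was the most abundant, with 878.12, 925.57 and 806.54 TPM without ArA and 959.75, 894.34 and 877.95 TPM with ArA (0.01, interval -0.18 to 0.20).

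In GENCODE v29 on hg38, 7 of the 28 genes overlap an expressed gene on the opposite strand, and whether counting used strand is not given in the sources used here, so their levels are uncertain to that extent. ACAT2 (chromosome 6, 159760328 to 159779055, forward strand) overlaps TCP1, which had a mean of 158 TPM. NPC1 overlaps RMC1 (17.6 TPM), NPC2 ISCA2 (24.5 TPM), MVK MMAB (20.9 TPM), DHCR7 DHCR7-DT (6.35 TPM), GGPS1 ARID4B (4.41 TPM) and FDPS RUSC1-AS1 (1.36 TPM). Copies named as pseudogenes of FDPS, IDI1, CYP51A1 and HSD17B7 stand in the table as well. The highest of them was a line named HSD17B7P2, at 1.09 to 2.07 TPM beside means of 39.0 and 40.2 TPM for HSD17B7 itself, while the other copies stayed at 0.72 TPM or lower. Other genes singled out above lie on reverse strands: HMGCS1 on chromosome 5 (43289395 to 43313512), STARD4 on chromosome 5 (111496033 to 111512590) and ERLIN1 on chromosome 10 (100150094 to 100188334).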

How the data were processed

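Transcript levels came from the deposited table of TPM, 1 column per library, as scaled by the authors. The submitters' processing notes name HISAT2, StringTie, RSEM and hg38, without versions or roles. For the annotation and the strand setting, nothing is given in the sources used here. The 50 lines that name no gene were left out, and no column was left unmatched to a sample. Genes averaging 1 TPM or more were put on log2(TPM + 1). The fit used limma 3.58.1 (R 4.3.3; lmFit, eBayes with a trend, group as the only term, 2-sided, Benjamini-Hochberg over all 12999 genes, threshold 0.05). The procedure was tested on simulated data with independent noise for each gene, which lacked the library deviations linked to GC content. That test therefore says nothing of their effect. GC content and coordinates came from the longest transcript of each gene in GENCODE v29, and the GC correction subtracted from each library a natural spline of 5 degrees of freedom on GC content. It dropped genes without a GC value (12637 remained, 97.2%). The set of 28 genes and the other lists were chosen with earlier results of these data known. Library values are given for genes whose groups did not overlap, for the 5 largest and the 5 smallest differences, for the 3 most abundant genes and for fixed genes of the wider pathway. Values by library of the other genes were added after they had been seen. Some genes of the wider pathway are counted in its list and not reported singly here.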

Additional observations from a re-analysis of the deposited data

How the results depend on the processing

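Alternatives comprised 3 other scalings (median of ratios, quantile normalization, TPM without mitochondrially encoded genes), GC correction, pseudocounts of 0.1 and 5, no filter, a minimum mean of 5 TPM, the replicate block, the block with GC correction, eBayes without trend and each library left out in turn. A fit without control replicate 2 and ArA replicate 1 was chosen after seeing the data. In all of them 0 of the 28 genes, 0 of the 28 other pathway genes and 0 of the 10 fatty acid genes were called. Over all genes, the fits called between 0 and 16, the latter of 13156 without control replicate 2 and ArA replicate 1. A count of 0 in a short list is near that background. With every library kept, all 308 gene differences stayed within 1 SD of the reported value, and 9 of the 28 genes changed sign, the largest such value being 0.0351 (DHCR7, without a filter). With libraries left out, 187 of 196 stayed within 1 SD, 22 genes changed sign and the lowest limma adjusted p was 0.521.

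Without a filter 20 of 28 genes lay above the median of all genes, against 12. Under the 3 other scalings, GC correction and the block with GC correction, 0 genes were higher and 1 was lower without overlap, beside 2.93 to 4.9% and 2.52 to 4.01% of all genes. Without control replicate 2 and ArA replicate 1 these counts were 4 and 3, beside 32.6% and 11.8% of all genes. With 1 library left out the count higher ran from 2 to 6 (6 without control replicate 1, beside 11.6% of all genes), the count lower from 0 to 3 (3 without control replicate 2, beside 10.2%) and the median difference of the set from -0.0266 to 0.0522 (the latter without control replicate 2). The median of the trafficking genes ran from -0.0006 to 0.1328 and was at its lowest without control replicate 3.

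Replicate numbers showed no pairing of the libraries in the values as deposited. Same-numbered deviations from the group means correlated at -0.156, -0.28 and 0.109 for replicates 1, 2 and 3. Of the 6 libraries only ArA replicate 3 correlated best with its own number. The highest correlation, 0.285, was that of control replicate 2 with ArA replicate 1, the libraries with the GC-linked deviations. The check was not repeated after GC correction, so it cannot show whether a pairing lay beneath that trend. The replicate block gave 0 calls among the 28 genes and 0 of 12999 over all genes, against 3. Unknown depth limits what can be said of GGPS1, the lowest gene of the set.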
